A study of Mus musculus with 16 samples.

Results

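The 10 genes described here encode the killing machinery of cytotoxic lymphocytes: the granzymes Gzma, Gzmb, Gzmc, Gzmd, Gzme, Gzmf and Gzmk, the pore-forming protein perforin (Prf1), the granule membrane protein Nkg7 and the death ligand Fasl. They were taken by gene name and are 10 of the 31053 genes in the count matrices. Single-cell RNA sequencing of sorted live CD45+ cells (leukocytes) from tumors of C57BL/6J mice gave 16 libraries in 4 groups of 4. MC38, a colorectal carcinoma line, and Panc02-SIY, a pancreatic adenocarcinoma line that carries the model antigen SIY, were grown under the skin of the flank. The groups were untreated MC38 (MC38 NT), MC38 given a single image-guided dose of 12 Gy (MC38 RT), untreated Panc02-SIY and irradiated Panc02-SIY. Irradiated tumors were taken 24 h after the dose, so that later time points and spontaneous tumors are not represented, and an introduced antigen is present in only one of the lines. The series and the methods give different numbers of animals per group, so p-values measure the spread between libraries.

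Cytotoxic T cells and natural killer (NK) cells store granzymes and perforin in lytic granules and release them at the contact with a target cell. Perforin opens the target membrane, granzymes enter and cleave intracellular proteins, and Fas ligand triggers the Fas death receptor by a separate route. Granzyme B cleaves caspases and Bid, granzyme A acts by a caspase-independent route, and Nkg7 takes part in granule exocytosis. In tumors these transcripts are used as readouts of effector lymphocytes, and mouse Gzmc to Gzmf are a rodent-specific expansion next to Gzmb.

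Barcodes were shared between libraries and this bears on every MC38 value. In MC38, the 9843 deposited barcodes were 2632 different sequences, of which 1239 (47.1%) occurred in several MC38 libraries, and the richest copy held a median of 17.5 times the UMIs (unique molecular identifiers) of the second. In Panc02-SIY, 187 of 18136 sequences (1.03%) were shared. Each sequence was therefore counted only in the library of its tumor where it had the most UMIs, which left 20768 of 28678 barcodes and 147 to 609 barcodes per MC38 library against 1113 to 4452 per Panc02-SIY library. Total UMIs were 1385711 to 8500889 per MC38 library and 5275195 to 43708746 per Panc02-SIY library, so that the Panc02-SIY values are the more precise. Classes were assigned by clustering without the 10 genes or any other granzyme, from marker lists. Levels are CPM, the UMIs of the gene scaled by all UMIs of the class in a library, fold changes are log2 values from an edgeR quasi-likelihood fit across all genes, and "called" means an adjusted p below 0.1 with a fold above 1.3.

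The chromosome 14 granzymes lie together, and their upstream sequences show how closely they are related. In GRCm38, Gzme, Gzmd, Gzmf, Gzmc and Gzmb, all on the minus strand, fall in that order within chr14:56117626-56262260, a span of 145 kb. Gzma (chr13:113093825-113100981) and Gzmk (chr13:113171608-113225908) are neighbors on the minus strand of chromosome 13, Prf1 is at chr10:61297833-61304680 on the plus strand, Nkg7 at chr7:43437073-43438249 on the plus strand and Fasl at chr1:161780689-161788495 on the minus strand. The 200 bases before the start site of the genes on which the results turn are given from RefSeq (GRCm38.p6), 5′ to 3′ along the gene, with matches to the RUNX motif TGTGGT, on either strand, in capitals.
Prf1: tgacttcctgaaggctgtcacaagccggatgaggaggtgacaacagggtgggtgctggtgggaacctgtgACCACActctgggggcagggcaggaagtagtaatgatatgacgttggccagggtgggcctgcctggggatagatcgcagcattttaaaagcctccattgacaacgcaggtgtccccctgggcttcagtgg
Gzmb: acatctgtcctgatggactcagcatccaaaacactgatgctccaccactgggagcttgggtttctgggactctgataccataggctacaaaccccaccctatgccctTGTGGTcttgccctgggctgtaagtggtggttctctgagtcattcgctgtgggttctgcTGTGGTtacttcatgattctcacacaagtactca
Gzmc: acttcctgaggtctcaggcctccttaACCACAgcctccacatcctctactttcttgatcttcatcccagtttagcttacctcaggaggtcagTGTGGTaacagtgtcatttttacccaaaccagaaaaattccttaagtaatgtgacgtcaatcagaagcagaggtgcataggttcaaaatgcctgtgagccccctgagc
Gzmd: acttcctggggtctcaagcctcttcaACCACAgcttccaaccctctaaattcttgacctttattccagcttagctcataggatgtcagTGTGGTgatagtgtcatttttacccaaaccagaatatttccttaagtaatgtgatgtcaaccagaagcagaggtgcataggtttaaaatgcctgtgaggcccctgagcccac
Gzme: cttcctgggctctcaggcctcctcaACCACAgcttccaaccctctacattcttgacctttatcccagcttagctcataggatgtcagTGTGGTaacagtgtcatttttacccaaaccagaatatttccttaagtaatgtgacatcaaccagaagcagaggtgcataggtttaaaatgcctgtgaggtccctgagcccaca
Gzmf: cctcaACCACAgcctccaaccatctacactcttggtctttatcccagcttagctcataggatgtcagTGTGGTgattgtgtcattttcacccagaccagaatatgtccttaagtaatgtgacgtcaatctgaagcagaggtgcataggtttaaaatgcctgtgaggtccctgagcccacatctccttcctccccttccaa

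These windows are chr14:56262335-56262534 for Gzmb, chr14:56234658-56234857 for Gzmc, chr14:56132594-56132793 for Gzmd, chr14:56120626-56120825 for Gzme and chr14:56211408-56211607 for Gzmf (minus strand), and chr10:61297636-61297835 for Prf1 (plus strand). The RefSeq start sites do not all fall at the gene ends given above, which are those of Ensembl genes. The Gzmk window (chr13:113180966-113181165) lies inside the Gzmk span. The Gzmd and Gzme windows were 94.0% identical and the Gzmc and Gzmd windows 85.3%, whereas Gzmb and Gzmd shared 47.1%. Gzmc, Gzmd, Gzme and Gzmf each held the same pair of RUNX matches, one on each strand. TGTGGT occurred in 8 of the 10 members, all but Gzmk and Fasl, and in 11.2% of 32851 windows of the same length. The AP-1 motif TGANTCA matched in Gzmb (5.48% of all windows), and the T-box half-site TCACACC in Gzmk and Nkg7 (2.64%). TATAAA matched in none of the 10 (9.96% of all windows). A match is a description of letters and not a site of binding. The transcripts are also alike where 3′ reads fall: the last 400 bases of Gzmd and Gzme were 87.1% identical and those of Gzmd and Gzmf 82.4%. Whether reads of these paralogs were counted for one another was not tested.

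NK cell-like barcodes carried the highest mean Gzma, Gzmb, Prf1 and Fasl of any class in both tumors. In Panc02-SIY the mean Gzma level was 10778 ± 1842 CPM in NK cell-like barcodes (SD, n = 8 libraries, as for the other Panc02-SIY means unless stated), above the next class in 8 of 8 libraries, and 1068 ± 719 in CD8 T cell-like barcodes. Prf1 followed with 1358 ± 369 CPM in NK cell-like and 432 ± 161 in CD8 T cell-like barcodes. CD8 T cell-like barcodes did not have the next highest mean for either gene. In cluster 8, a T and NK cluster described below, mean Gzma was 2112 CPM untreated and 2604 irradiated, and mean Prf1 352 and 605. T and NK barcodes left unnamed had mean Gzma of 2146 and 1640 CPM. The order at the top was less clear for Gzmb: NK cell-like barcodes at 2009 ± 804 and regulatory T cell-like barcodes at 1980.0 ± 359 (n = 7) overlapped, and NK was the higher in 3 of 7 libraries. This order differed by treatment. In untreated libraries regulatory T cell-like barcodes were the higher without overlap, at 1638 to 2088 CPM against 1049 to 1480 in NK. In irradiated libraries the NK mean was the higher, at 2726 against 2074 CPM. Gzmb was thus found in regulatory T cell-like barcodes, a class with little Prf1, at 48.4 ± 22.9 CPM. Mast cell or basophil-like barcodes held Gzmb at 476 ± 128 CPM (n = 5). Fasl reached 304 ± 49.9 CPM in NK and 216 ± 29.9 in CD8 T cell-like barcodes.

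Nkg7 and Gzmk had another order. In Panc02-SIY, Nkg7 was at 3371 ± 386 CPM in CD8 T cell-like barcodes and 2488 ± 303 in NK cell-like barcodes, with CD8 the higher in 8 of 8 libraries although the ranges overlapped. Gzmk, a granzyme of memory and exhausted CD8 T cells, was at 76.4 ± 29.7 CPM in CD8 T cell-like barcodes, 66.9 ± 20.8 in T and NK barcodes left unnamed, and 6.67 ± 2.03 in NK cell-like barcodes. Gzmc was highest in a further T and NK cluster of Panc02-SIY, cluster 8 of 448 barcodes, at 2122 ± 1112 CPM against 21.2 ± 19.3 in NK cell-like barcodes. That cluster had Gzmc as its leading gene and raised 3 of 6 markers of type 1 innate lymphoid cells and 4 of 9 NK markers. More NK than innate lymphoid markers stood among its 10 leading genes, so it is called cluster 8 here. Its Gzmd (109.8 ± 160.1 CPM), Gzme (66 ± 97.3 CPM) and Gzmf (191 ± 277 CPM) were also the highest class means in Panc02-SIY, each with an SD larger than its mean.

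**Figure D1:**
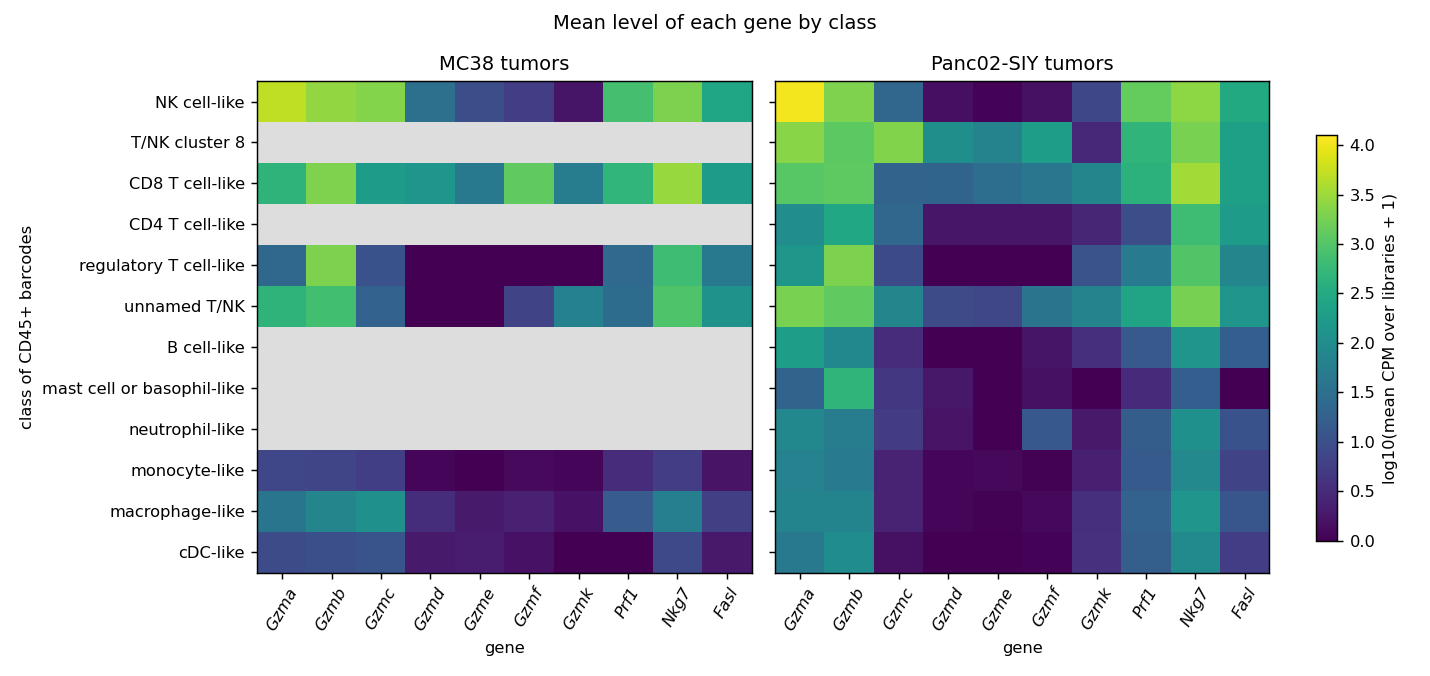
Mean level of each of the 10 genes (columns) in each class of barcodes (rows) of MC38 and Panc02-SIY tumors, colored by log10(mean CPM over libraries + 1). Grey cells are classes without a library of 10 or more barcodes. Gzma and Prf1 peak in the NK cell-like row of both tumors, and Gzmc in cluster 8 of Panc02-SIY.

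In MC38 the classes were small and only some neighbors in the order could be told apart. NK cell-like barcodes had Gzma at 5140.3 ± 2691 CPM, Prf1 at 765 ± 364 and Gzmb at 2723 ± 1311 (SD, n = 8). CD8 T cell-like barcodes had means of 459 ± 715, 502 ± 206 and 1995 ± 1068 CPM for the same genes (SD, n = 3). For each of these genes the NK and CD8 ranges overlapped. In the 1 untreated CD8 library, Gzmb (2840 CPM) and Prf1 (725 CPM) were above the untreated NK means of 1784 and 498 CPM. Gzmb was also higher in the 1 untreated regulatory T cell-like library, at 2644 CPM. Gzmf was at 1271 ± 1603 CPM in CD8 T cell-like and 4.48 ± 8.33 in NK cell-like barcodes. Over all MC38 libraries, the 5 richest CD8 T cell-like barcodes held 93.9% of the 673 Gzmf UMIs of that class. Nkg7, Gzmk, Gzmd and Gzme also had the higher mean in CD8 T cell-like barcodes (2943, 52.0, 141 and 43.6 CPM) than in NK cell-like barcodes (1990.4, 0.718, 31.8 and 8.76 CPM), Gzmd and Gzme from 1 CD8 barcode.

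The share of each transcript pool depends on class size as well as level. In Panc02-SIY, NK cell-like barcodes gave 41.4% of the Gzma UMIs and 30.3% of the Prf1 UMIs. CD8 T cell-like barcodes gave 30.5% of Prf1, 46.2% of Nkg7 and 38.9% of Fasl. T and NK barcodes left unnamed (cycling, interferon, Tcf7 and other clusters, 3520 barcodes) gave 45% of Gzmb and 37% of Gzma. These unnamed barcodes were 18.7% to 25.5% of a Panc02-SIY NT library, 15.5% to 20.5% of a Panc02-SIY RT library and 1.91% to 8.68% of an MC38 library. In MC38, NK cell-like barcodes gave 79.4% of Gzma, 58.4% of Prf1 and 44.9% of Gzmb, and CD8 T cell-like barcodes gave 92.3% of Gzmf.

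The first question was whether radiation changed these genes within NK cells. Prf1 was higher after radiation in the NK cell-like barcodes of both tumors. In Panc02-SIY, Prf1 was 1028, 1160.2, 897 and 1028 CPM in the untreated and 1786, 1744, 1502 and 1719.6 CPM in the irradiated libraries (replicates 1 to 4). Every irradiated library was above every untreated one, with means of 1028 ± 108 (SD, n = 4) and 1688 ± 127 (SD, n = 4). The log2 fold change was 0.66 ± 0.17 (SE, adjusted p = 0.0689), which was called. Its margin was narrow, since the call held without untreated replicate 2 and was lost without any other single Panc02-SIY library, at adjusted p of 0.120 to 0.209 and log2 fold changes of 0.60 to 0.72.

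In MC38, Prf1 in NK cell-like barcodes was 675, 650.0, 261 and 406 CPM untreated and 679, 1164, 1335 and 948 CPM irradiated. The class held only 13 to 30 barcodes per untreated and 14 to 41 per irradiated library. Untreated replicate 3 and irradiated replicate 1, each the lowest of its group, had the fewest barcodes and the highest summed T cell markers (given below). The part of these in the Prf1 values was not tested. The Prf1 groups did not overlap, but the highest untreated and the lowest irradiated library differed by a small part of either group's spread. Means were 498 ± 199 (SD, n = 4) and 1032 ± 283 (SD, n = 4), with a log2 fold change of 1.04 ± 0.21 (SE, adjusted p = 0.00978), called. With every barcode counted in every library it was 0.78 ± 0.16 (SE, adjusted p = 0.0116). The call was lost in a fit of the 8 MC38 libraries alone, 1.01 (adjusted p = 0.185), and without irradiated replicate 3, 0.87 (adjusted p = 0.107). Prf1 was the only called member of 7 tested in each tumor, against 0.636% of all 5499 genes called in MC38 and 0.818% in Panc02-SIY. The interaction of tumor and radiation passed for 0 of 7 members (0.0727% of all genes), with 1 (Nkg7) at an unadjusted p under 0.05 and 0 by DESeq2, and for Prf1 it was 0.38 (adjusted p = 0.79).

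Gzmb had a larger log2 fold change than Prf1 in Panc02-SIY NK cell-like barcodes but was not called. It was 1395, 1479.7, 1241 and 1049 CPM untreated and 3094, 2812, 2653 and 2347 CPM irradiated. No untreated library reached the irradiated range, and the means were 1291 ± 189 (SD, n = 4) and 2726 ± 312 (SD, n = 4). The log2 fold change was 1.03 ± 0.40 (SE, adjusted p = 0.39). In a fit of the 8 Panc02-SIY libraries alone it was 1.03 ± 0.11 (SE, adjusted p = 9.82e-08), and DESeq2 gave an adjusted p of 0.0997. In MC38, Gzmb was 3385, 1473, 343 and 1936 CPM untreated and 3309, 3853, 3894 and 3590.1 CPM irradiated, overlapping groups with a log2 fold change of 0.97 ± 0.41 (SE, adjusted p = 0.458).

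Fasl in Panc02-SIY NK cell-like barcodes was 260.0, 273, 261 and 242 CPM untreated and 367, 333, 356 and 339.6 CPM irradiated. The groups did not overlap, and the log2 fold change of 0.38 ± 0.16 (SE, adjusted p = 0.376) was not called. In all, 3 of 7 members (Gzmb, Prf1 and Fasl) were higher in every irradiated Panc02-SIY library, against 5.84% of all genes. In MC38 these were Prf1 and Nkg7, 2 of 7 members, against 1.98% of all genes. MC38 Nkg7 was 1778, 1415, 1323 and 1974 CPM untreated and 2648, 2071, 2618 and 2097 CPM irradiated, with a log2 fold change of 0.51 ± 0.16 (SE, adjusted p = 0.19), and Panc02-SIY Nkg7 had -0.10 (adjusted p = 0.911).

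The remaining NK members had overlapping groups. Gzma in Panc02-SIY was 8326 to 10163 CPM untreated and 9309 to 13375 CPM irradiated, with a log2 fold change of 0.27 ± 0.52 (SE, adjusted p = 0.933). In MC38 it was 441 to 7826 and 4529 to 8204 CPM, with 0.64 ± 0.54 (SE, adjusted p = 0.767). MC38 Fasl had a log2 fold change of -0.15 (adjusted p = 0.9). Gzmk was near absent from NK cell-like barcodes, with 22 and 26 UMIs in all Panc02-SIY NT and RT libraries and 0 and 1 in MC38, and was not tested. The median log2 fold change over the 7 tested members was 0.27 in Panc02-SIY and 0.51 in MC38, beside 0.01 and -0.00404 over all genes.

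**Figure D2:**
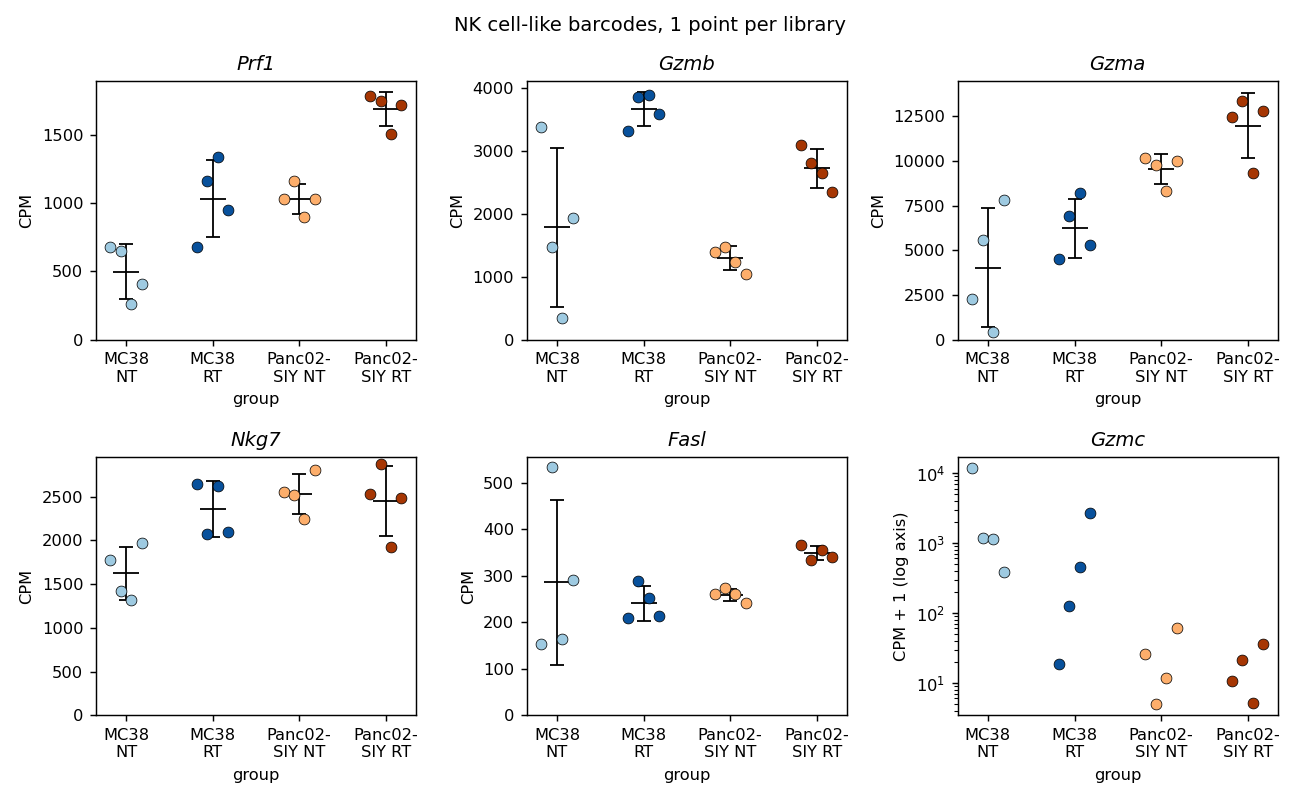
Level of 6 of the genes in NK cell-like barcodes, 1 point per library (CPM, Gzmc as CPM + 1 on a log axis), in the 4 groups, with bars for mean ± SD where the axis is linear. Prf1 points of irradiated libraries lie above the untreated ones in both tumors, and Gzmb points do so in Panc02-SIY.

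Composition and depth moved with the Panc02-SIY NK result. The NK cell-like barcodes consisted of cluster 2 and the Serpinb9b-led cluster 5, which had the higher Prf1 and Gzmb, and cluster 5 made up 21.5% to 35.9% of them in untreated and 34.5% to 58.0% in irradiated libraries. Within cluster 2, Gzmb was 587 to 756 CPM untreated and 1183 to 1469 irradiated (means 662 ± 78.8 and 1296 ± 125, SD, n = 4 each). Within cluster 5 it was 2736 to 3634 and 4452 to 4667 CPM (means 3167 ± 405 and 4561 ± 88). Gzmb was thus without overlap inside each cluster. In fits of the Panc02-SIY libraries alone, unlike the pooled NK fit of both tumors, its log2 fold changes were 0.92 (adjusted p = 1.41e-07) in cluster 2 and 0.48 (adjusted p = 0.0556) in cluster 5.

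Prf1 differed between the clusters in this overlap, and its cluster fits were also of the Panc02-SIY libraries alone. In cluster 2 it was 536 to 780.4 CPM untreated and 912 to 1124 irradiated, without overlap, with a log2 fold change of 0.52 (adjusted p = 0.018). In cluster 5 it was 1841 to 2371 and 2334 to 3292, which overlapped, with a log2 fold change of 0.28 (adjusted p = 0.488). Gzma in cluster 5 averaged 16546 ± 2642 untreated and 16369 ± 2366 CPM irradiated, and in cluster 2 7278 ± 941 and 8662 ± 1851. The part of cluster composition in the pooled NK values was not tested further.

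The share of barcodes with a UMI was also compared with each barcode at the same depth. With each barcode thinned to 2000 UMIs, which left out 14 untreated and 19 irradiated barcodes, Gzmb was detected in 62% of untreated and 82.7% of irradiated Panc02-SIY NK cell-like barcodes (unthinned 78.2% and 90.6%, median depth 5065 and 4108 UMIs). Prf1 went from 72% to 85.7% and Fasl from 35.5% to 48.2%, values given without a test. In neutrophil-like barcodes, which should lack these genes, Gzmb was in 5.56% and Prf1 in 1.88% of thinned barcodes (median depth 2284 UMIs), and in B cell-like barcodes in 3.8% and 1.09%. In regulatory T cell-like barcodes, Gzmb was in 80.8% and Prf1 in 6.92%.

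The NK marker list was present throughout: none of its 9 genes was at 0 in any of the 16 libraries, and its summed level was 4373 to 5334 CPM in untreated and 4678 to 5661 in irradiated Panc02-SIY libraries. In MC38 it was 3707 to 10694 untreated, highest in replicate 1, and 3466 to 4564 irradiated. The summed T cell markers were 409 to 633 CPM in the Panc02-SIY NK barcodes. In MC38 they were 1927 CPM in untreated replicate 3 and 2648 in irradiated replicate 1, and 349 to 484 in the others. Macrophage markers summed to 571 to 1300 CPM in MC38 and 36.5 to 126 in Panc02-SIY. Their part in the MC38 values was not tested.

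**Figure D3:**
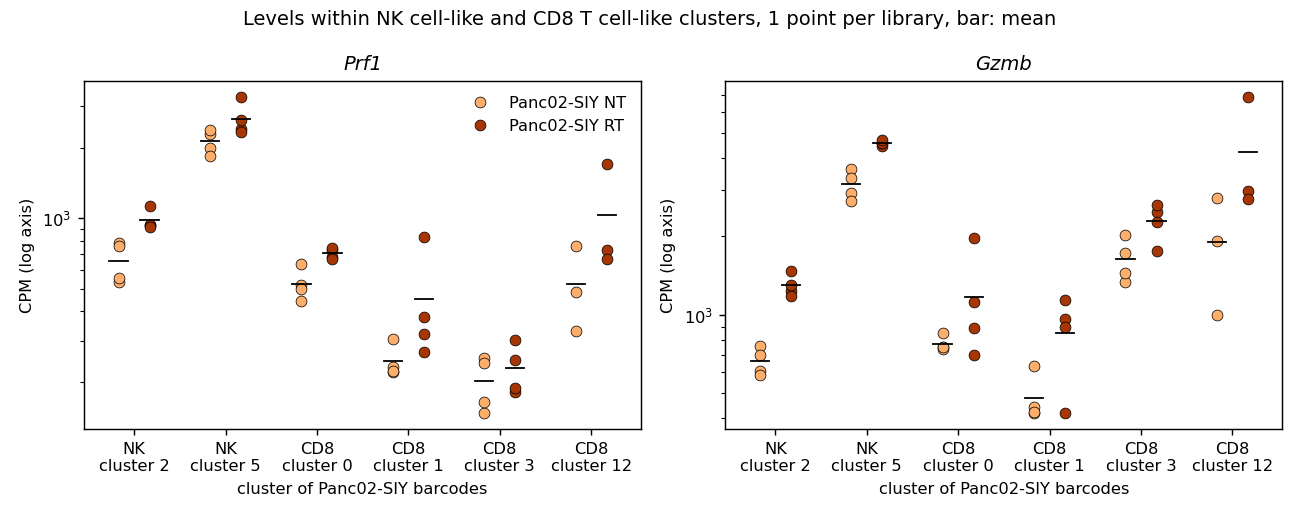
Prf1 (left) and Gzmb (right) in the single clusters that make up the NK cell-like and CD8 T cell-like barcodes of Panc02-SIY, untreated and irradiated, in CPM on a log axis, 1 point per library with 10 or more barcodes and a bar at the mean. Gzmb of both NK clusters is higher in every irradiated library, and Prf1 of CD8 cluster 0 likewise.

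CD8 T cell-like barcodes of Panc02-SIY also had higher Prf1 after radiation. It was 259, 347, 285 and 334 CPM untreated and 700.1, 441, 458 and 632 CPM irradiated. The groups did not overlap, with means of 306 ± 41.6 (SD, n = 4) and 558 ± 128 (SD, n = 4) and a log2 fold change of 0.77 ± 0.16 (SE, adjusted p = 0.0264). Prf1 was the 1 called member of 10 tested, beside 1.38% of 10687 genes, and the call held in every alternative but a fit that also kept MC38 libraries of 2 to 9 barcodes, where it was 0.81 (adjusted p = 0.461). Fasl was 199.6, 199, 193 and 189 CPM untreated and 214, 212, 262 and 264 irradiated, again without overlap, with a log2 fold change of 0.22 ± 0.11 (SE, adjusted p = 0.505). The 2 members higher in every irradiated library, Prf1 and Fasl, compare with 5.17% of all genes. In the Panc02-SIY T and NK barcodes left unnamed, Prf1 was 251 ± 80.7 CPM untreated and 236 ± 122 irradiated (SD, n = 4 each). Gzmb was 1320 ± 410 and 1156 ± 359 CPM there, Gzma 2146 ± 382 and 1640 ± 1171, and Fasl 114 ± 10.4 and 164 ± 24.6. These means are given without a test.

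The CD8 T cell-like barcodes came from clusters 0, 1, 3 and 12, whose shares varied widely between libraries, cluster 0 from 5.73% to 44.8% untreated and from 12.3% to 68.8% irradiated. Within cluster 0, Prf1 was 444 to 638 CPM untreated and 672 to 745 irradiated, without overlap. Means in cluster 1 were 245 ± 40.5 and 449.8 ± 259 CPM, in cluster 3 201 ± 54.1 and 229.9 ± 56.4, and in cluster 12 524 ± 217 and 1031 ± 575. The irradiated mean was the higher in each cluster, by a small margin in cluster 3. Thinned to 2000 UMIs, Prf1 was in 37.6% of untreated and 45.1% of irradiated CD8 T cell-like barcodes, and Fasl in 33.3% and 40.5%.

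The granzymes of Panc02-SIY CD8 T cell-like barcodes overlapped between groups. Gzmb was 633, 1307, 827 and 1136 CPM untreated and 682, 1788, 1882 and 1531 irradiated, with a log2 fold change of 0.52 ± 0.45 (SE, adjusted p = 0.796). Gzma was 519, 2378, 667 and 668 and 329, 1861, 1288 and 835 CPM, with -0.03 (adjusted p = 1), and replicate 2 was the highest library of each group. Gzmk was 49.3, 97.7, 55.7 and 65.9 and 36.6, 116, 113 and 77.7 CPM, with 0.34 (adjusted p = 0.832). Nkg7 was 3175 to 3854 CPM untreated and 2833 to 3754 irradiated, with -0.13 (adjusted p = 0.842). Gzma was carried mainly by cluster 3, at means of 2823 ± 2068 and 2707 ± 1294 CPM, and Gzmb was highest in cluster 12, at 1904 ± 900.2 and 4209.8 ± 2298 CPM (n = 3 libraries each).

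MC38 had only 73 CD8 T cell-like barcodes, and 3 of its 8 libraries held the 10 needed for the fit, 1 untreated (replicate 4) and 2 irradiated (replicates 3 and 4). Prf1 was 725 CPM in the untreated and 317 and 464 CPM in the irradiated libraries. Gzmb was 2840 CPM against 794 and 2350, and Gzmf 3071 against 0 and 741. In that untreated library 300 of the 305 Gzmf UMIs were in 1 barcode, and the level without it was 54.0 CPM. Fits that include MC38 NT take its spread from the other groups and compare that 1 library, not the condition, so they are given as counts and no p is read from them. edgeR called 0 of 10 members between irradiated and untreated MC38 (0.103% of all genes), with 0 at an unadjusted p under 0.05 and 0 by DESeq2. For the interaction it called 0 of 10 (0.0281% of all genes), with 1 at an unadjusted p under 0.05 and 1 by DESeq2. Against untreated Panc02-SIY it called 1 of 10, Gzmf (2.86% of all genes), and DESeq2 called 3. Between irradiated tumors, with 2 MC38 libraries, edgeR called 0 of 10 members (6.71% of all genes), 1 (Fasl) had an unadjusted p under 0.05 and DESeq2 called 0.

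Cluster 8 of Panc02-SIY, compared between groups after the data had been seen, differed in Fasl. It was 191, 157, 150.4 and 154 CPM untreated and 349, 192, 225 and 268 irradiated. The lowest irradiated library was just above the highest untreated one, and the log2 fold change was 0.61 ± 0.18 (SE, adjusted p = 0.0774), the 1 called of 9 members tested beside 2.35% of 5223 genes. The call was lost by DESeq2, 0.61 (adjusted p = 0.163), with counts thinned to the same mean UMIs per barcode in each library, 0.49 (adjusted p = 0.264), and without any of untreated replicates 2, 3 and 4 and irradiated replicates 1 and 4, at adjusted p of 0.140 to 0.300. Prf1 was 243, 202, 520.1 and 444 CPM untreated and 629, 559.7, 528 and 703 irradiated, without overlap, with 0.71 ± 0.30 (SE, adjusted p = 0.353). Members without overlap (Prf1 and Fasl) were 2 of 9, beside 5% of all genes. Median depth was 7880 to 9115.5 UMIs per barcode in untreated and 4700 to 6465.5 in irradiated libraries, a difference that moved with these values.

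Gzmb in cluster 8 was 375, 476, 892 and 1329 CPM untreated and 1301, 1327, 1456 and 2255 irradiated, overlapping groups with a log2 fold change of 0.97 ± 0.47 (SE, adjusted p = 0.444). Gzmc, its leading gene, was 1618, 1935, 2334 and 3354 and 1184, 4157, 1015 and 1378 CPM, with -0.30 (adjusted p = 0.888), and irradiated replicate 2 was the highest of all. The same replicate held the highest Gzmd, Gzme and Gzmf of the cluster, while irradiated replicate 1 held none. Gzmk was 0 to 5.3 CPM. Gzma was 720.5 to 4862 CPM untreated and 1992 to 3157 irradiated.

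**Figure D4:**
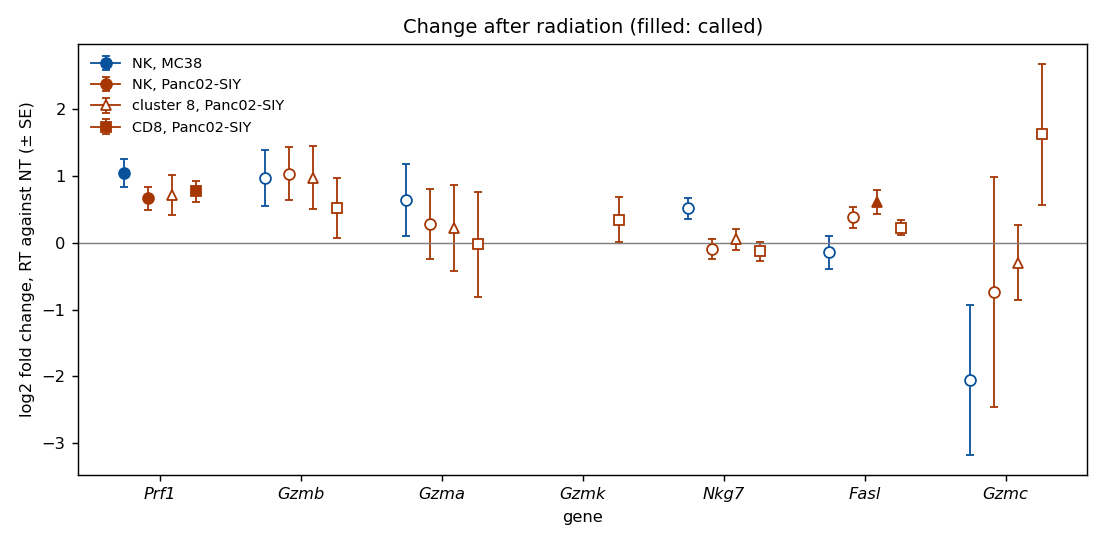
Log2 fold change (± SE) of irradiated against untreated libraries for 7 of the genes in NK cell-like barcodes of each tumor, and in cluster 8 and CD8 T cell-like barcodes of Panc02-SIY, from the edgeR fits. Filled symbols are called: Prf1 in both NK fits and the CD8 fit, and Fasl in cluster 8.

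The next question was how NK cell-like barcodes differed between tumors. Each tumor was clustered separately, and cluster 8 was set apart from NK cell-like barcodes in Panc02-SIY only, so the classes were not bounded alike. Prf1 was lower in MC38 by a log2 fold change of -0.88 ± 0.20 (SE, adjusted p = 0.00228) untreated and -0.51 ± 0.19 (SE, adjusted p = 0.0561) irradiated. With every barcode counted in every library these were -0.61 (adjusted p = 0.0031) and -0.49 (adjusted p = 0.0109). Median depth was 1790.5 to 3314.5 UMIs per NK barcode in MC38 libraries and 3638 to 5317 in Panc02-SIY, and with a filter of 500 genes and 10% mitochondrial UMIs the irradiated difference was -0.23 (adjusted p = 0.4). It was also not called without MC38 RT replicate 1, -0.38 (adjusted p = 0.188), without MC38 RT replicate 4, -0.48 (adjusted p = 0.166), or without Panc02-SIY RT replicate 2, -0.48 (adjusted p = 0.109). Nkg7 was lower in untreated MC38 by -0.50 ± 0.16 (SE, adjusted p = 0.0263), called, which the same filter changed to -0.10 (adjusted p = 0.761) and counting every barcode to -0.27 (adjusted p = 0.112). Of 7 members, 2 (Gzmc and Gzmd) were called higher and 2 (Prf1 and Nkg7) lower in untreated MC38, beside 10.2% of all genes higher and 7.87% lower (18% in all). In irradiated MC38, 2 (Gzmc and Gzmd) were called higher and 1 (Prf1) lower, beside 11.7% and 9.4% (21.1% in all). Gzmd had 33 UMIs in MC38 and 3 in Panc02-SIY NK cell-like barcodes. Gzmc and Gzmd could pass the filter on low counts only through MC38 libraries, so nothing is read from their calls as higher there.

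Gzma and Gzmb did not pass the test between tumors. The log2 fold changes of MC38 against Panc02-SIY were -1.12 ± 0.54 (SE, adjusted p = 0.206) untreated and -0.76 ± 0.53 (SE, adjusted p = 0.394) irradiated for Gzma, and 0.66 ± 0.41 (SE, adjusted p = 0.335) and 0.60 ± 0.40 (SE, adjusted p = 0.368) for Gzmb. With every barcode counted, Gzmb was called as higher in MC38 in both, at 1.07 (adjusted p = 0.000126) and 0.67 (adjusted p = 0.00613), and Gzma as lower untreated, at -0.87 (adjusted p = 0.0631). Groups without overlap were Gzma, Prf1 and Nkg7 (lower) and Gzmc (higher) untreated, 4 of 7 members against 16.6% of all genes. Irradiated, they were Gzma, Prf1 and Fasl (lower) and Gzmb (higher), 4 of 7 against 23.8%. Of these members, Gzmc could pass the filter on low counts only through MC38 libraries. The 2 comparisons are between different libraries.

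Gzmc was higher in MC38 than in Panc02-SIY NK cell-like barcodes, as these classes were drawn. The T and NK cluster led by Gzmc was set apart from NK cell-like barcodes in Panc02-SIY only. Its mean Gzmc was 2310 CPM untreated and 1933 irradiated. The part of this boundary in the Gzmc difference between tumors was not tested. In MC38 NK cell-like barcodes, Gzmc was 11604, 1184, 1143 and 381 CPM untreated and 17.4, 124, 459.9 and 2683 irradiated. In Panc02-SIY NK cell-like barcodes, Gzmc was 24.8, 4.07, 10.7 and 60.8 CPM untreated and 9.5, 20, 4.14 and 35.2 irradiated. Untreated replicate 1 and irradiated replicate 4 stood far above the other MC38 libraries. The fitted log2 difference was 7.18 ± 1.45 (SE) untreated and 5.86 ± 1.45 (SE) irradiated, both resting in part on 1 library. Gzmc could pass the filter on low counts only through MC38 libraries, so nothing is read from its calls as higher there. Without MC38 NT replicate 1 the untreated difference was 4.90. Without MC38 RT replicate 4 the irradiated difference was 3.92 (adjusted p = 0.205), no longer called. Within MC38 the radiation change was -2.05 ± 1.12 (SE, adjusted p = 0.603).

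These Gzmc UMIs came from few barcodes. A Gzmc UMI was in 41 of 190 MC38 NK cell-like barcodes, and the 5 richest held 89.6% of 2868 UMIs. Without the richest barcode of each library, MC38 levels were 7842, 362, 445 and 120.0 CPM untreated and 0, 52.7, 199.6 and 48.9 irradiated, so that irradiated replicate 4 fell to the range of the others while untreated replicate 1 did not. Irradiated replicate 1 held a single Gzmc UMI. Gzmd, Gzme and Gzmf were in 5, 4 and 5 of the 190 barcodes. Gzmd had 33 UMIs in MC38 NK cell-like barcodes and 3 in 3 of the 1503 Panc02-SIY ones, so its fitted differences are not given. The 5 barcodes with Gzmd and the 4 with Gzme all held Gzmc as well, but 1 of the 5 with Gzmf did.

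In cluster 8 of Panc02-SIY, Gzmc was spread more widely, in 183 of 448 barcodes, with 32.5% of 7324 UMIs in the 5 richest. All 17 barcodes with Gzmd, all 16 with Gzme and 11 of 12 with Gzmf held Gzmc. These barcodes were not thinned, and median depth was 6860 UMIs in cluster 8 and 2262.5 in MC38 NK cell-like barcodes. The share of the 5 richest also depends on how many barcodes hold the gene. CD8 T cell-like barcodes of Panc02-SIY held Gzmc in 108, Gzmd in 21, Gzme in 15 and Gzmf in 92 of 3171, and the richest single barcode held 282 of 852 Gzmf UMIs. Of the 92 with Gzmf, 17 also held Gzmc. In MC38 CD8 T cell-like barcodes, Gzmf was in 17 of 73, with 300 of its 673 UMIs in 1 barcode, and all Gzmd and Gzme UMIs were in 1 barcode. One MC38 macrophage-like barcode held 2089 of the 2615 Gzmc UMIs of that class, which were 44.8% of all MC38 Gzmc UMIs.

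**Figure D5:**
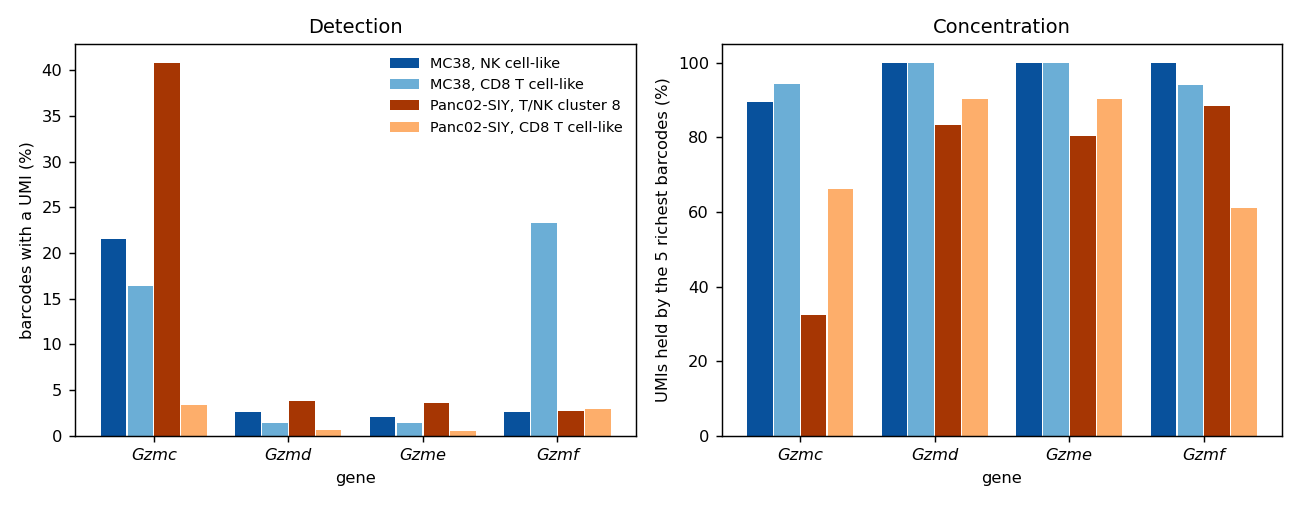
Share of barcodes with a UMI (left, %) and share of the gene's UMIs in its 5 richest barcodes (right, %) for Gzmc, Gzmd, Gzme and Gzmf, in the NK cell-like and CD8 T cell-like barcodes of MC38 and in cluster 8 and the CD8 T cell-like barcodes of Panc02-SIY. Detection is highest for Gzmc in cluster 8, at 183 of 448 barcodes, where the 5 richest barcodes hold 32.5% of the UMIs. Depth and number of barcodes differ between the classes and were not equalized.

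Summed over all CD45+ barcodes, most members were lower in MC38 than in Panc02-SIY. In such sums, fewer cells of a type, less RNA of the gene per cell and more RNA from other classes cannot be told apart. Macrophage-like barcodes had a median of 33902 UMIs in MC38 and 2151 in Panc02-SIY. Prf1 was 29.7 ± 24.5 (SD, n = 4) CPM in MC38 NT, 42.1 ± 5.35 in MC38 RT, 216 ± 17.3 in Panc02-SIY NT and 327 ± 60.9 in Panc02-SIY RT. The log2 differences of MC38 against Panc02-SIY were -2.72 ± 0.46 (SE, adjusted p = 0.000142) untreated and -2.59 ± 0.46 (SE, adjusted p = 0.000249) irradiated. Of 10 members, 6 were called lower untreated (Gzma, Gzmb, Gzmk, Prf1, Nkg7 and Fasl), beside 32% of 12447 genes called lower and 61.1% called in either direction. Irradiated, 7 were called lower, with Gzme added, beside 28.6% lower and 58.5% in either direction. Nkg7 had 106 ± 51.7 and 196 ± 100.4 CPM in MC38 NT and RT against 1562 ± 102 and 1249 ± 243 in Panc02-SIY. Gzmc had 171 ± 284 CPM in MC38 NT and 98.4 ± 33.9 in Panc02-SIY NT, with a log2 difference of 0.95 ± 1.21 (SE, adjusted p = 0.514).

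Few of these sums passed the test for radiation. In MC38, Nkg7 rose by a log2 fold change of 0.96 ± 0.34 (SE, adjusted p = 0.0915), the 1 called of 10 members beside 11.7% of all genes, and with every barcode counted in every library it was 0.66 (adjusted p = 0.133). Its call was also lost with counts thinned to the same mean UMIs per barcode in each library, 0.91 (adjusted p = 0.154), in a fit of the MC38 libraries alone, 0.93 (adjusted p = 0.26), and without MC38 NT replicates 2, 3 or 4 or RT replicates 1 or 3, at adjusted p of 0.137 to 0.256. In Panc02-SIY 0 of 10 members were called by edgeR (14.7% of all genes), 0 had an unadjusted p under 0.05 and 0 were called by DESeq2. A fit of the Panc02-SIY libraries alone called 1 member. Prf1 had a log2 fold change of 0.52 ± 0.41 (SE, adjusted p = 0.457) in the fit of both tumors. Its Panc02-SIY sums were 192 to 234 CPM untreated and 286 to 415 irradiated, without overlap. Of all genes, 10.8% were likewise higher in every irradiated library. The interaction passed for 0 of 10 (0.345% of all genes), with 1 (Nkg7) at an unadjusted p under 0.05 and 0 by DESeq2. NK cell-like barcodes were 6.37 ± 2% of CD45+ barcodes in MC38 NT and 9.17 ± 1.94% in MC38 RT, and 6.9 ± 3.24% and 11.9 ± 3.25% in Panc02-SIY (SD, n = 4 each). The two-sided exact permutation p was 0.114 and 0.0857 (adjusted over 8 share tests, 0.229 in both). CD8 T cell-like barcodes were 2.15 ± 1.4% in MC38 NT and 18.4 ± 0.902% in Panc02-SIY NT, with an exact permutation p of 0.0286, the smallest that 4 against 4 libraries allow (adjusted 0.114).

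Of 37 other genes of the granule and death receptor pathways, 0 of the 27 tested in NK cell-like barcodes were called by edgeR after radiation in either tumor, beside 0.636% of all genes in MC38 and 0.818% in Panc02-SIY. At an unadjusted p under 0.05 there were 4 in MC38 and 9 in Panc02-SIY, and DESeq2 called 2 and 0. The shares of all genes at these thresholds are not given, so no excess is read from these counts. In Panc02-SIY CD8 T cell-like barcodes 4 of 35 were called, all higher, beside 0.842% of all genes called higher. These were the death receptors Fas at 1.11 ± 0.27 (SE, adjusted p = 0.0461) and Tnfrsf10b at 3.11 ± 0.55 (SE, adjusted p = 0.00179), and the transcription factors Prdm1 (Blimp-1) at 0.61 ± 0.13 (SE, adjusted p = 0.0188) and Zeb2 at 0.70 ± 0.14 (SE, adjusted p = 0.00594). In cluster 8 the granzyme B inhibitor Serpinb9 at 0.77 ± 0.15 (SE, adjusted p = 0.00257) and the T-box factor Eomes at 1.36 ± 0.24 (SE, adjusted p = 0.00145) were called higher, 2 of 25 tested beside 1.65% of all genes. In the CD45+ sums 10 of 35 were called higher in irradiated MC38 (7.24% of all genes), among them Ifng, Fas and Eomes at 1.79, 1.00 and 1.60 (log2), and 6 of 35 in irradiated Panc02-SIY (7.69% of all genes), with Fas at 0.97 and Tnf at 0.82.

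Between tumors, the NK cell-like barcodes of untreated MC38 had 7 of 27 pathway genes called higher and 7 lower, beside 10.2% and 7.87% of all genes. Higher were the granule proteoglycan serglycin (Srgn 0.52), the granzyme-activating protease cathepsin C (Ctsc 0.97), Ctsw 0.60, Lamp1 0.80, Serpina3g 1.00, the death ligand TRAIL (Tnfsf10 2.38) and Runx3 1.05 (log2 fold changes). Lower were Lyst -1.18 and Ap3b1 -1.15, which act in granule formation, the serpins Serpinb9b -3.15 and Serpinb6b -0.83, and the transcriptional regulators Eomes -1.20 and Id2 -0.44. Prdm1 was also called lower, at 25.2 ± 34.5 CPM in MC38 and 69.6 ± 16.9 in Panc02-SIY (SD, n = 4 each). Among irradiated libraries 5 were called higher, including Srgn 0.99 and Ctsw 0.89, and 5 lower, including Serpinb6b -0.92 and Prdm1 -1.53, of 27 and beside 11.7% and 9.4% of all genes. In these NK cell-like barcodes, macrophage markers summed to 571 to 1300 CPM in MC38 libraries against 36.5 to 126 in Panc02-SIY libraries, and their part in the differences was not tested. Eomes is also one of the markers from which NK cell-like barcodes were named. Cluster 8, which raised some markers of type 1 innate lymphoid cells, was set apart from NK cell-like barcodes in Panc02-SIY only. Its part in these differences, among them Tnfsf10 and Eomes, was not tested. In the CD45+ sums all 5 granzyme inhibitors were called lower in MC38, untreated (32% of all genes called lower) and irradiated (28.6%).

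Across the 49 clusters of 50 or more barcodes of both tumors, the genes whose level was most like each member are given as a description, by Pearson r of log2(CPM + 1) over 13135 genes; clusters share libraries and depth. Prf1 was closest to Ctsw (r = 0.92), Nkg7 (r = 0.92) and Klrc1 (r = 0.92), and Nkg7 to Il2rb (r = 0.97), Klrc1 (r = 0.97) and Trbc1 (r = 0.97). Gzma was closest to Prf1 (r = 0.91), Ncald (r = 0.86) and Klrc1 (r = 0.86). Gzmb was closest to Gm19585 (r = 0.95), Gimap5 (r = 0.94) and Il2rb (r = 0.93). Gzmk followed CD8 T cell genes, Cd8b1 (r = 0.90), Trbv13-1 (r = 0.88) and Cd8a (r = 0.87), and Fasl was closest to Il18r1 (r = 0.97), Sh2d2a (r = 0.96) and Lck (r = 0.96). Gzmc was closest to Gzmd (r = 0.76), Slc27a6 (r = 0.72) and Xcl1 (r = 0.71). Gzmd was closest to Gzme (r = 0.95), Gzmc (r = 0.76) and Gzmf (r = 0.74), and Gzme to Gzmd (r = 0.95), Gzmf (r = 0.77) and Gzmc (r = 0.68). Gzmf was closest to Gzme (r = 0.77), Gzmd (r = 0.74) and Fam71b (r = 0.71). The transcript ends of Gzmd, Gzme and Gzmf are alike, and the part of this in the likeness of their levels was not tested.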

How the data were processed

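Live CD45+ cells from mouse tumors were profiled in 16 libraries with the 10x 3′ v3.0 kit. The authors deposited UMI counts per gene and barcode for each library, made with Cell Ranger 3.1.0 and bcl2fastq 2.20.0 on mm10 according to the submitters' processing notes. The annotation used for counting is not given in the sources used here. A further matrix that aggregates all libraries was not used. Barcodes found in several libraries of a tumor were kept where richest. Each tumor was clustered in scanpy 1.11.5 (2000 variable genes without the 13 members and granzymes, 30 components, 20 neighbors, Leiden 1), and clusters were named from marker lists when 3 or more markers were raised. Deposited barcodes were taken as cells with no further filter. The automatic Scrublet threshold marked 57 barcodes and was not used, and the 5% with the highest score per library were removed as an alternative. Counts were summed per library and class (10 or more barcodes) and tested with edgeR 4.0.16 quasi-likelihood (TMM, filterByExpr, 1 coefficient per group, Benjamini-Hochberg over all genes) in R 4.3.3, with DESeq2 1.42.0 as an alternative. The test was checked on simulated counts for irradiated against untreated Panc02-SIY only, and the other comparisons were not checked in this way. Library numbers were not taken as pairs, since neither a source nor every correlation of same-numbered libraries ties them. The members and lists were chosen with earlier results of these data known. Named are the 10 members, listed pathway genes that passed, and the 3 genes most like each member. Each SD is the spread between libraries, and each SE is that of the edgeR fit. For counts at an unadjusted p or by DESeq2 no share of all genes is given, so no excess is read from them.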

Additional observations from a re-analysis of the deposited data

Results flagged for a closer look

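Dixon's test was used as a flag, with a cutoff that marks about 1 in 20 groups of independent, normally distributed values. Levels of sparse and related genes are not such values, so no excess is read from the number flagged. In 74 groups of 4 libraries examined, 14 held 1 library that stood apart from the other 3. In NK cell-like barcodes these were Gzmc in MC38 NT replicate 1 (11604 CPM) and in MC38 RT replicate 4 (2683 CPM), and Gzmd in Panc02-SIY NT replicate 2 (2.04 CPM, a single UMI). In CD8 T cell-like barcodes, Panc02-SIY NT replicate 2 stood high for 4 granzymes, with Gzma at 2378 CPM, Gzmc at 16.4, Gzmd at 15.2 and Gzme at 12.2. Gzmc stood high in CD8 T cell-like barcodes of Panc02-SIY RT replicate 3 (96.1 CPM).

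In cluster 8 of Panc02-SIY, RT replicate 2 stood high for all of Gzmc (4157 CPM), Gzmd (462 CPM), Gzme (267 CPM) and Gzmf (824 CPM). Fasl stood high in NT replicate 1 (191 CPM) and Gzmb in RT replicate 4 (2255 CPM) of the same cluster. The level of Fasl in NT replicate 1 was still below each irradiated library.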

How the results depend on the processing

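Of 423 recomputed counts and shares, 349 kept their direction and side of the threshold (counts within 1.5 times), as did 660 of 730 recomputed member fold changes, and 0 fold changes reversed. The members called in each comparison are given below with the count as reported in parentheses, and the cause of a change was not tested. Depth limits MC38, where 3 libraries held enough CD8 T cell-like barcodes, and the cell filter left no untreated MC38 library for that class.

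For all CD45+ barcodes, irradiated against untreated MC38 (1) gave 0 at adjusted p below 0.05, with no filter on low counts, with every barcode in every library, at thinned mean depth and in the MC38 libraries alone, and 2 with DESeq2. For irradiated against untreated Panc02-SIY (0), the Panc02-SIY libraries alone gave 1. For NK cell-like barcodes, irradiated against untreated Panc02-SIY (1) gave 0 at adjusted p below 0.05 and 2 (Gzmb added) with DESeq2, every barcode, the cell filter, Leiden resolution 2, the Panc02-SIY libraries alone and cluster 2 alone, and cluster 5 alone gave Gzmb only. For MC38 (1), the MC38 libraries alone gave 0. For CD8 T cell-like barcodes, where untreated MC38 is 1 library, untreated MC38 against Panc02-SIY (1) gave 0 at adjusted p below 0.05, 2 with RLE scaling, no filter and Leiden resolution 2, 3 with DESeq2 and libraries of 2 or more barcodes, and 4 with every barcode. The interaction (0) gave 1 with no filter and DESeq2, irradiated MC38 against Panc02-SIY (0) gave 1 with every barcode and 2 with Leiden resolution 2, and irradiated against untreated Panc02-SIY (1) gave 0 with libraries of 2 or more barcodes. Cluster 8 (1) gave 0 at adjusted p below 0.05, with DESeq2, Leiden resolution 2 and thinned mean depth, and 2 with no filter.

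Library numbers are shared between groups, and no source used here says that they mark shared animals, litters or days. Over all CD45+ barcodes, the deviations of same-numbered libraries from their group means correlated above 0.1 in 1 of 4 MC38 and 3 of 4 Panc02-SIY pairs (-0.174 in the other), and 3 of 8 and 6 of 8 libraries were closest to their own number. In NK cell-like barcodes these were 0 of 4 and 3 of 4 pairs, and 1 of 8 and 7 of 8 libraries. The numbers were therefore not used as pairs, and a shared origin of some Panc02-SIY libraries was not tested. With the replicate number as a block, the counts were 2 for irradiated against untreated MC38 over all CD45+ barcodes, 2 for irradiated MC38 against Panc02-SIY and 1 for the interaction in CD8 T cell-like barcodes, and 2 for cluster 8.

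Leaving out 1 library gave 0 to 3 for MC38, 0 to 1 for Panc02-SIY, 6 to 7 for untreated and 7 to 8 for irradiated MC38 against Panc02-SIY and 0 to 1 for the interaction over all CD45+ barcodes. For NK cell-like barcodes it gave 0 to 2 for MC38, 0 to 1 for Panc02-SIY, 3 to 5 for untreated and 1 to 3 for irradiated tumors against each other. For CD8 T cell-like barcodes it gave 0 to 1 for untreated tumors, irradiated tumors and the interaction, and for cluster 8 0 to 2.

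Differences in the share of CD45+ barcodes, in percentage points, also moved. With every barcode in every library, the CD8 T cell-like share of irradiated minus untreated MC38 turned from 1.12 to -0.0321, MC38 minus Panc02-SIY became -15.7 untreated and -12.2 irradiated, and the NK cell-like share of irradiated MC38 minus Panc02-SIY became -7.50. With Leiden resolution 2 the CD8 differences between tumors were -11.3 untreated and -7.77 irradiated, and the NK change in MC38 was 2.67. Leaving out 1 library, CD8 differences ran from -16.8 to -15.8 between untreated tumors, -14.5 to -10.1 between irradiated tumors, 0.620 to 1.86 in MC38 and -5.09 to -0.692 in Panc02-SIY. NK differences ran from -1.55 to 0.670 between untreated tumors, where 0.0812, 0.334 and 0.670 reversed, -4.36 to -1.95 between irradiated tumors, 1.93 to 3.61 in MC38 and 4.02 to 6.63 in Panc02-SIY.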
